A study of Mus musculus with 26 samples.

Results

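The immediate early genes followed here were Egr1, Fos, Fosb, Fosl2, Jun, Junb, Jund, Ier2, Ier5 and Arc, and their labelled transcripts were traced through a pulse and chase of RNA in oligodendrocyte progenitor cells (OPCs) and oligodendrocytes (OLs). The 10 genes were chosen by name from their behaviour during the chase, and 9 of them were found in at least one of the expression tables, which together hold 10104 transcripts. For OPCs 8 of the 10 were among 8530 transcripts, and for OLs 9 were among 9751. Fosb was listed for OLs but not for OPCs, and Arc was listed for neither. Levels are in FPKM, a read density per transcript length and library size. Because transcripts under 1 FPKM at the start of the chase, or at 0 at 1 h and 2 h, had been removed before deposit, a gene that is not listed was not shown to be absent.

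Both cell types were mouse cells of strain 129S/SvEv derived in culture from epiblast stem cells. OPCs were kept in growth medium with bFGF and PDGFA. OLs were obtained in differentiation medium with noggin, IGF-1, cAMP, NT3 and T3. The uridine analogue 5-ethynyl uridine (5-EU) was given to OPCs, and to OLs after 40 h of differentiation, for 24 h. The medium with 5-EU was then exchanged for one with unlabelled uridine, and labelled RNA was captured after 0, 1, 2, 4 and 6 h of chase. There were 3 OPC replicates and 2 OL replicates at each of the 5 times, so that 15 OPC and 10 OL libraries were used, and 1 OPC control library without biotin was not analysed here. The labelled spike-in RNAs set the scale of the chase libraries, so that each chase value could be read as a percent of the same replicate's 0 h level.

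The labelled cell types were compared with marker genes. All 9 OL markers, among them Mbp of myelin, were listed for OLs, where they summed to between 2837 and 6192 FPKM at 0 h, whereas in OPCs 2 of the 9 were listed and summed to between 37.6 and 55.1 FPKM. Sums over the 7 genes taken as OPC markers say little about OPC identity. Among the 7, Olig1 alone stood at 1009 to 1079 FPKM in OPCs, and the study treats OLIG2 as a marker of both cell types. The 7 genes were listed for both, at 1536 to 1696 FPKM in OPCs and 1285 to 1494 FPKM in OLs. Within them Olig1, Olig2 and Cspg4 were lower in both OL replicates than in any OPC replicate, whereas Gpr17 (5.00 to 6.61 FPKM in OPCs, 299 and 323 FPKM in OLs), Sox10 (4.06 to 25.4, 89.0 and 111 FPKM) and Pdgfra (11.5 to 26.5, 43.9 and 66.9 FPKM) were higher, and Ptprz1 overlapped. Of 6 astrocyte markers, 3 were listed in OPCs (242 to 291 FPKM) and 5 in OLs (221 to 448 FPKM). Of 6 neuronal markers, 3 were listed in OPCs (83.3 to 189 FPKM) and 4 in OLs (199.7 to 215 FPKM). The part of these other cell types in the results below was not tested. No microglial or endothelial marker was listed.

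Immediate early genes are transcribed within minutes of a growth factor, calcium or stress signal, without any need for new protein, and their mRNAs are usually lost quickly. Fos, Fosb and Fosl2 encode Fos family proteins, which pair with Jun, Junb or Jund to form the transcription factor AP-1, and Egr1 encodes a zinc finger transcription factor. Ier2 and Ier5 encode nuclear proteins of the early response, and Arc encodes a synaptic protein best known in neurons. In the oligodendrocyte lineage such genes respond to mitogens and to differentiation signals.

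The members share a low exon number, which the choice of genes did not use. Jun, Junb, Jund, Ier2 and Ier5 each have 1 exon in the canonical transcript, a structure found in 2.84% of the 9981 listed transcripts with an annotated 3′ untranslated region. All 9 listed members have 4 exons or fewer, against 21.1% of those transcripts. Their coding lengths ran from 663 nucleotides (Ier2) to 1599 nucleotides (Egr1), and their 3′ untranslated regions from 485 nucleotides (Junb) to 4653 nucleotides (Fosl2). Their median coding length was 1014 nucleotides, against 1395 for all, but their median transcript (3189 against 3120) and 3′ untranslated region (1216 against 1113) were not shorter.

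AU-rich elements, which recruit proteins that destabilise mRNA, are built on the pentamer ATTTA. At least 1 such pentamer was found in the 3′ untranslated region of 8 of the 9 members, against 69.9% of all 9981, and at least 3 in Fos (4), Jun (4) and Fosl2 (8), against 37.9% of all. Ier2 had none. The longer form TTATTTATT was found in Fos and Fosl2, against 7.85% of all. The members were thus set apart less by the pentamer than by their exon number. The richest 30-base stretches of Fos, Fosl2 and Jun are shown because these genes hold most pentamers, with the single pentamer stretches of Fosb and Junb for contrast. They were read from the GENCODE vM21 transcripts on build GRCm38, 5′ to 3′ on the gene's own strand, with each ATTTA in capitals. Positions are chr12:85477101-85477130 (plus strand) for Fos, chr5:32156865-32156894 (plus) for Fosl2, chr4:95049207-95049236 (minus) for Jun, chr7:19303325-19303354 (minus) for Fosb and chr8:84977126-84977155 (minus) for Junb.
Fos: tgtgttttcaATTTATTTAttaagatggat
Fosl2: attgacATTTAttttattATTTAttttaaa
Jun: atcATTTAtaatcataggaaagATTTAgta
Fosb: ccacccccagctATTTAtccctttcctggt
Junb: atatatttgtgtATTTAacagggaggggag
In Fos the 2 pentamers overlap, whereas in Fosl2 and Jun they stand apart. Half-lives were compared across all transcripts with a half-life and an annotated 3′ untranslated region. Those with TTATTTATT had medians of 1.96, 1.96 and 2.22 h in OPC replicates 1 to 3 and 3.03 and 3.14 h in OL replicates 1 and 2. Those without it had medians of 2.38, 2.104, 2.88, 4.30 and 4.22 h in the same order. The 1-exon transcripts likewise had medians of 1.60, 1.89, 1.91, 3.24 and 2.46 h, and those with more exons 2.37, 2.08, 2.84, 4.20 and 4.15 h. In every replicate the medians of both classes lay below those of the remaining transcripts, a description across transcripts that are not independent of each other.

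Promoter windows of 250 bases before to 50 bases after the transcription start were held for 7 of the 9 listed members in RefSeq sequences of build GRCm38.p6. The pentamer TGACG, the core of the cyclic AMP response element, was searched on both strands (TGACG or CGTCA) and occurred in Fos (2 matches), Fosb and Junb (1 each) and in none of Fosl2, Jun, Jund and Ier5. The start in the window lies 1210 bases upstream of that of the listed transcript for Jund and 671 bases downstream of it for Fosl2, so these 2 windows are not the promoters of the transcripts measured. Of 32851 promoter windows, 20.8% held it. The full palindrome TGACGTCA (1.79% of windows), the AP-1 motif TGACTCA (5.20%) and the CArG box of serum response factor (1.63%) occurred in none of the 7 windows, which says nothing about elements outside them. The TATA box letters TATAAA, searched on both strands, occurred in Fos and Junb, against 13.6% of windows. The stretches with the pentamer in capitals are shown because Fos, Fosb and Junb are among the genes with the highest 1 h levels in OLs below. For Egr1 and Ier2, which also had a 1 h peak in OLs, no window was examined. They lie at chr12:85473748-85473777 (plus strand) and chr12:85473811-85473840 (plus) for Fos, chr7:19310089-19310118 (minus) for Fosb and chr8:84978838-84978867 (minus) for Junb.
Fos, upstream match: tggggcgtagagtTGACGacagagcgcccg
Fos, downstream match: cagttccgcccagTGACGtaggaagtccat
Fosb: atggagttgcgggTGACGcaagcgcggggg
Junb: cgcttcctgacagTGACGcgagccgcctcc
The matches began 129 and 66 bases (Fos), 60 bases (Fosb) and 106 bases (Junb) before the start. Each match is a run of letters and not a binding site shown by any measurement here.

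At the start of the chase, Fos was higher and Ier2 lower in OLs than in OPCs, whereas the other 6 members listed for both cell types did not pass the test. This contrast between cell types was not used to choose the genes, although the 0 h level is also the denominator of each percent given further on. In bulk samples such as these, fewer cells of a type and less RNA per cell cannot be told apart. The 0 h values were taken as FPKM without spike-in scaling, so they are relative to the RNA of their own library. Fos stood at 5.42, 3.20 and 10.3 FPKM in OPC replicates 1, 2 and 3, and at 16.4 and 29.4 FPKM in OL replicates 1 and 2. Both OL values lay above all OPC values, a difference of 1.77 ± 0.43 (SE) on the log2(FPKM + 1) scale (limma, adjusted p = 0.0129). Among the 8177 transcripts tested, 14.1% were called higher in OLs, so a call in this direction was not rare.

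Ier2 was at 25.9, 22.2 and 22.8 FPKM in the OPC replicates and at 10.4 and 11.8 FPKM in the OL replicates. The OL level was lower by 1.03 ± 0.23 (SE) on the log2 scale (limma, adjusted p = 0.00914), with no overlap between groups, beside 17.5% of all transcripts called lower in OLs. Without OL replicate 1 the Ier2 difference was -0.95, and without OL replicate 2 the Fos difference was 1.37. Neither was called with a lone OL library.

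The Jun family did not differ detectably. Jun was the most abundant member per length, at 55.3 ± 3.54 FPKM (SD, n = 3) in OPCs and 57.6 ± 7.85 FPKM (n = 2) in OLs, with a log2 difference of 0.05 ± 0.18 (SE). Jund, a broadly expressed AP-1 partner, followed at 51.9 ± 5.02 and 39.7 ± 9.95 FPKM, with a log2 difference of -0.40 ± 0.21. Junb was far lower at 2.74 ± 1.22 and 4.99 ± 1.29 FPKM. Its log2 difference of 0.71 ± 0.35 missed the threshold (limma, adjusted p = 0.142).

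Egr1 was at 13.6 ± 1.35 FPKM in OPCs (n = 3), and its OL replicates were unequal at 5.79 and 14.4 FPKM. Ier5 was at 17.4 ± 1.92 and 13.8 ± 2.72 FPKM in OPCs and OLs. Fosl2 was among the lowest at 2.01 ± 0.53 FPKM in OPCs, above only 1.501% of the listed transcripts, and at 1.60 and 4.50 FPKM in the OL replicates. Log2 differences were -0.51 ± 0.35 for Egr1, -0.32 ± 0.25 for Ier5 and 0.34 ± 0.37 for Fosl2, and their adjusted p-values from limma lay between 0.298 and 0.502. Fosb, listed for OLs, was lowest at 1.46 and 1.55 FPKM. In OPCs the order of mean levels was thus Jun, Jund, Ier2, Ier5, Egr1, Fos, Junb and Fosl2, in which Jun and Jund, Fos and Junb, and Junb and Fosl2 differed by less than the larger SD of the pair.

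**Figure D1:**
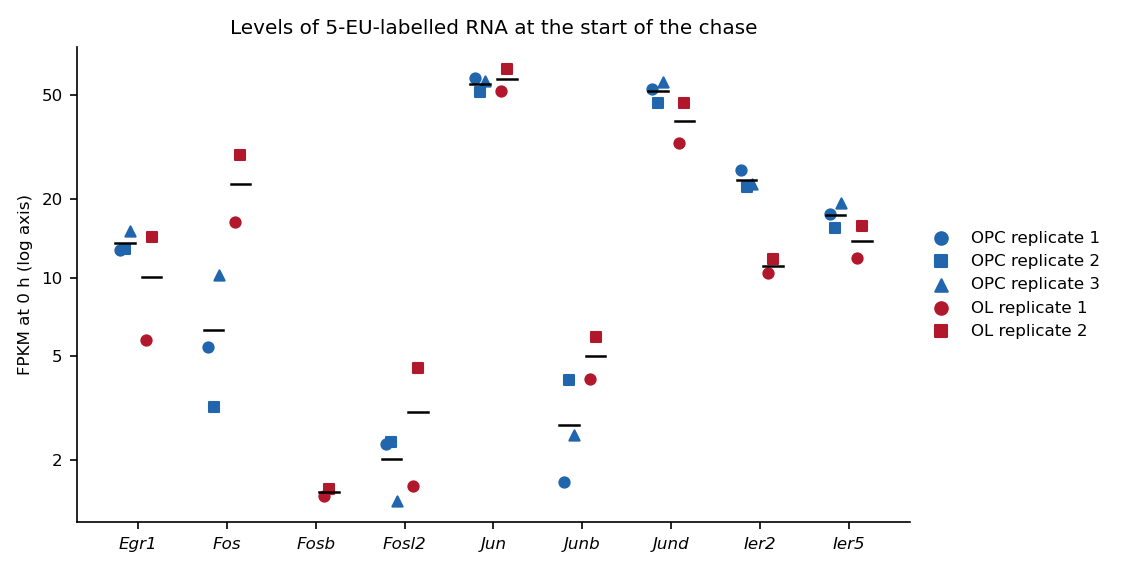
FPKM of each member at 0 h on a log axis, with 1 point per replicate (blue, OPC; red, OL) and a black bar at the mean. Both OL points of Fos lie above its OPC points and both OL points of Ier2 lie below, whereas the points of Egr1, Fosl2, Jun, Jund and Ier5 overlap between cell types and those of Junb nearly touch (4.06 and 4.08 FPKM).

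During the chase most members followed 1 of 3 patterns by description, namely a peak at 1 h, an early loss without a peak, and a later peak, and Jund followed none of them. These chase values chose the genes, so no test is given for them, and every percent below is of the same replicate's own 0 h level. A model of decay from 100% has no place for levels above 100%, and what lay behind such levels was not tested. Over all transcripts, the 1 h medians were 67.9%, 95.3% and 75.4% for the 3 OPC replicates and 64.0% and 95.5% for the OL replicates, so the replicates numbered 2 had a higher scale at 1 h than the others. Values are therefore also given beside the library medians. Values of 0 were not particular to the members. At 6 h 15.7%, 21.6% and 16.4% of all transcripts were at 0 in OPC replicates 1 to 3, against 4.08% and 0.79% in OL replicates 1 and 2. At 4 h the shares were 2.23%, 14.8% and 5.65% in OPCs and 2.26% and 0.82% in OLs.

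Ranked by the lower OL replicate, Egr1 had the highest 1 h level, while Fos was higher in OL replicate 2 and in OPC replicates 1 and 2. In OLs Egr1 stood at 402% and 529% of its 0 h level at 1 h, from 5.79 to 23.2 FPKM in replicate 1 and from 14.4 to 76.0 FPKM in replicate 2. It was first of 9751 transcripts in that ranking. In OPCs it stood at 103%, 121% and 228%, a smaller excess that placed it 67th of 8530. After the peak it was lost faster than any other OPC transcript from 1 h to 2 h, when ranked by its slowest replicate, with only 7.95%, 3.56% and 4.24% of the 1 h amount left at 2 h, against library medians of 78.6%, 86.9% and 95.9%. In OLs 18.9% and 18.7% of the 1 h amount was left, and Egr1 ranked 14th of 9751 by this measure, with library medians of 114% and 65.4%. Egr1 was above its own 0 h level at 1 h and at no later time in both cell types, although in OLs it was still 1.04 and 1.58 times the library median at 2 h. At 6 h Egr1 was at 4.00%, 0% and 0% in OPCs and at 91.8% and 13.8% in OLs, or 2.91 and 0.38 times the library medians, so the OL replicates parted.

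Fos and Fosb also had their highest levels at 1 h. Fos stood at 108%, 459% and 202% at 1 h in OPCs and at 207% and 650.0% in OLs. In FPKM its OL replicate 2 went from 29.4 to 191 and OPC replicate 2 from 3.20 to 14.7. At 2 h the OPC values were 70.1%, 21.0% and 18.1%, at 4 h 5.72%, 0% and 0%, and at 6 h all were listed at 0. The OL values were 88.6% and 231% at 2 h, and 61.5% and 44.8% at 6 h. All OL values at 4 h and 6 h lay above all OPC values.

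Fosb, a close relative of Fos, was at 223% and 471% at 1 h in OLs, at 60.4% and 179% at 2 h, 87.8% and 154% at 4 h, and 76.4% and 34.7% at 6 h. Its 0 h levels of 1.46 and 1.55 FPKM were close to the 1 FPKM minimum, and the number of reads behind them is unknown.

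Junb had a 1 h peak in both OL replicates and in 2 of 3 OPC replicates. It stood at 310.1% and 491% in OLs, second of 9751 by its lower replicate, and at 158%, 50.8% and 228% in OPCs. In OPC replicate 2, which had the highest library median at 1 h among OPCs, it was below its 0 h level. The OL level stayed high, at 167% and 236% at 2 h and 161% and 125% at 4 h, whereas OPC values were 26.9%, 4.47% and 22.0% at 4 h. At 6 h the OL replicates were at 182% and 60.3%.

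Ier2 stood at 128% and 363% at 1 h in OLs and at 44.6%, 116% and 76.8% in OPCs. By 2 h it was at 67.6% and 123% in OLs but at 16.9%, 7.65% and 7.86% in OPCs. The OL and OPC values did not overlap from 1 h to 6 h. At 6 h the OL values were 39.4% and 14.97%, and the OPC values 8.91%, 0% and 8.20%.

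Above its own 0 h level at 1 h in every replicate were 5 of 9 members in OLs (Egr1, Fos, Fosb, Junb and Ier2), beside 1.91% of all OL transcripts, and 2 of 8 in OPCs (Egr1 and Fos), beside 1.08% of all OPC transcripts. In OLs Egr1, Junb, Fosb and Fos held ranks 1, 2, 4 and 5 by the lower replicate, and Ier2 rank 33. In OPCs Fos and Egr1 held ranks 39 and 67. After each library was divided by its own median relative level, the count became one of members above the library median in every replicate. In OPCs the same 2 were counted, beside 15.1% of all OPC transcripts. In OLs Fosl2 joined the 5, which made 6, beside 29.0% of all OL transcripts. Since the rule used these levels, nothing is read from the counts beyond the description. Later excesses were fewer. In OPCs no member was above its 0 h level in every replicate at 2, 4 or 6 h, beside 2.13%, 6.82% and 4.41% of all transcripts. In OLs Fosl2 and Junb were so at 2 h, Junb at 4 h and none at 6 h, beside 3.1%, 9.81% and 5.18%.

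**Figure D2:**
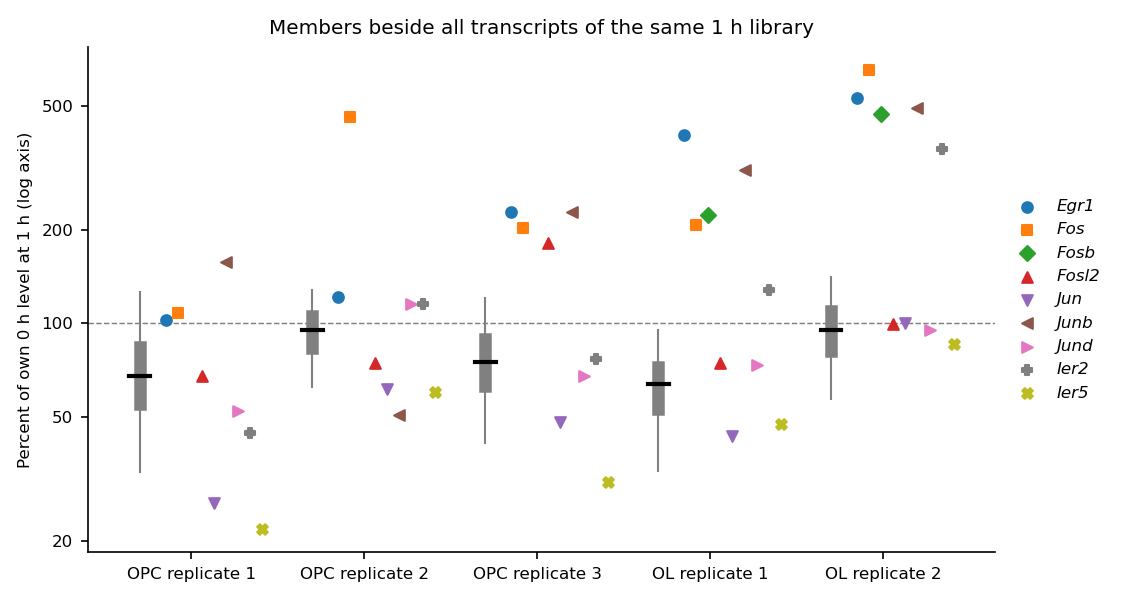
Percent of own 0 h level at 1 h (log axis) for each member in each of the 5 replicates, beside all transcripts of the library in grey (thin line, 5th to 95th percentile; thick line, quartiles; black bar, median). Egr1, Fos, Fosb, Junb and Ier2 lie above the 95th percentile in both OL libraries, whereas Jun and Ier5 lie below the median in the 3 OPC libraries.

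Jun and Ier5 had no 1 h peak and were lost early in OPCs, whereas their OL replicates differed. Jun stood at 26.6%, 61.8% and 48.4% at 1 h in OPCs and at 43.6% and 100.2% in OLs. By 2 h it was at 10.7%, 7.68% and 17.9% in OPCs, and by 6 h at 16.2%, 14.3% and 14.9%, so that OPC replicates 1 and 2 were at their lowest at 2 h and not at 6 h. In FPKM those 2 replicates went from 6.22 to 9.45 and from 3.94 to 7.35 between 2 h and 6 h. OL replicate 1 did likewise, from 22.0 to 33.2 FPKM (63.8% of 0 h, or 2.03 times the library median), whereas OL replicate 2 went from 35.9 to 11.4 FPKM.

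Ier5 stood at 21.9%, 60.2% and 31.1% at 1 h in OPCs and at 47.7% and 85.8% in OLs. At 2 h it was at 6.68%, 6.94% and 15.6% in OPCs, against 45.2% and 45.9% in OLs. At 4 h and 6 h OL replicate 1 was at 67.6% and 81.0%, the latter 2.57 times its library median, and OL replicate 2 at 35.8% and 14.2%, the latter 0.39 times. Its course followed that of Jun. It too was lowest at 2 h in OPC replicates 1 and 2 and in OL replicate 1. Over the 20 chase libraries the Pearson r of Jun with Ier5 was 0.963, the highest of the 28 pairs of members listed for both cell types, computed on log2 levels relative to 0 h after subtraction of the library median. The 20 points share the 0 h libraries of 5 replicates and the cell type contrast, so this r is a description.

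Jund kept at least 46.6% of its 0 h level to 2 h in every OPC replicate, more than any other member by the lowest replicate. It stood at 52.5%, 115% and 67.6% at 1 h and 46.6%, 70.9% and 63.5% at 2 h, then at 13.8%, 15.7% and 13.5% at 4 h. In OPC replicates 2 and 3 the step from 2 h to 4 h carried most of its loss, whereas replicate 1 lost most before 2 h. In OLs it stayed near its 0 h level in replicate 1 (73.8%, 110%, 102% and 95.5% at 1, 2, 4 and 6 h) and was at 95.5%, 87.2%, 76.3% and 44.0% in replicate 2.

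Fosl2, which encodes the Fos family protein Fra-2, was the member whose OL peak came late. In OLs it stood at 74.9% and 99.6% at 1 h and at 128% and 134% at 2 h. In replicate 2 it was at 264% at 4 h, from 4.50 FPKM at 0 h to 11.9 FPKM, and in replicate 1 at 79.7%. In OPCs it was at 67.9%, 74.5% and 181% at 1 h and at 43.5%, 17.8% and 30.02% at 2 h. At 6 h OPC replicates 1 and 2 were listed at 0 whereas replicate 3 was at 62.8%, or 0.88 FPKM. With 0 h levels of 1.40 to 2.35 FPKM in OPCs the levels were near the 1 FPKM minimum, and the number of reads behind them is unknown.

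**Figure D3:**
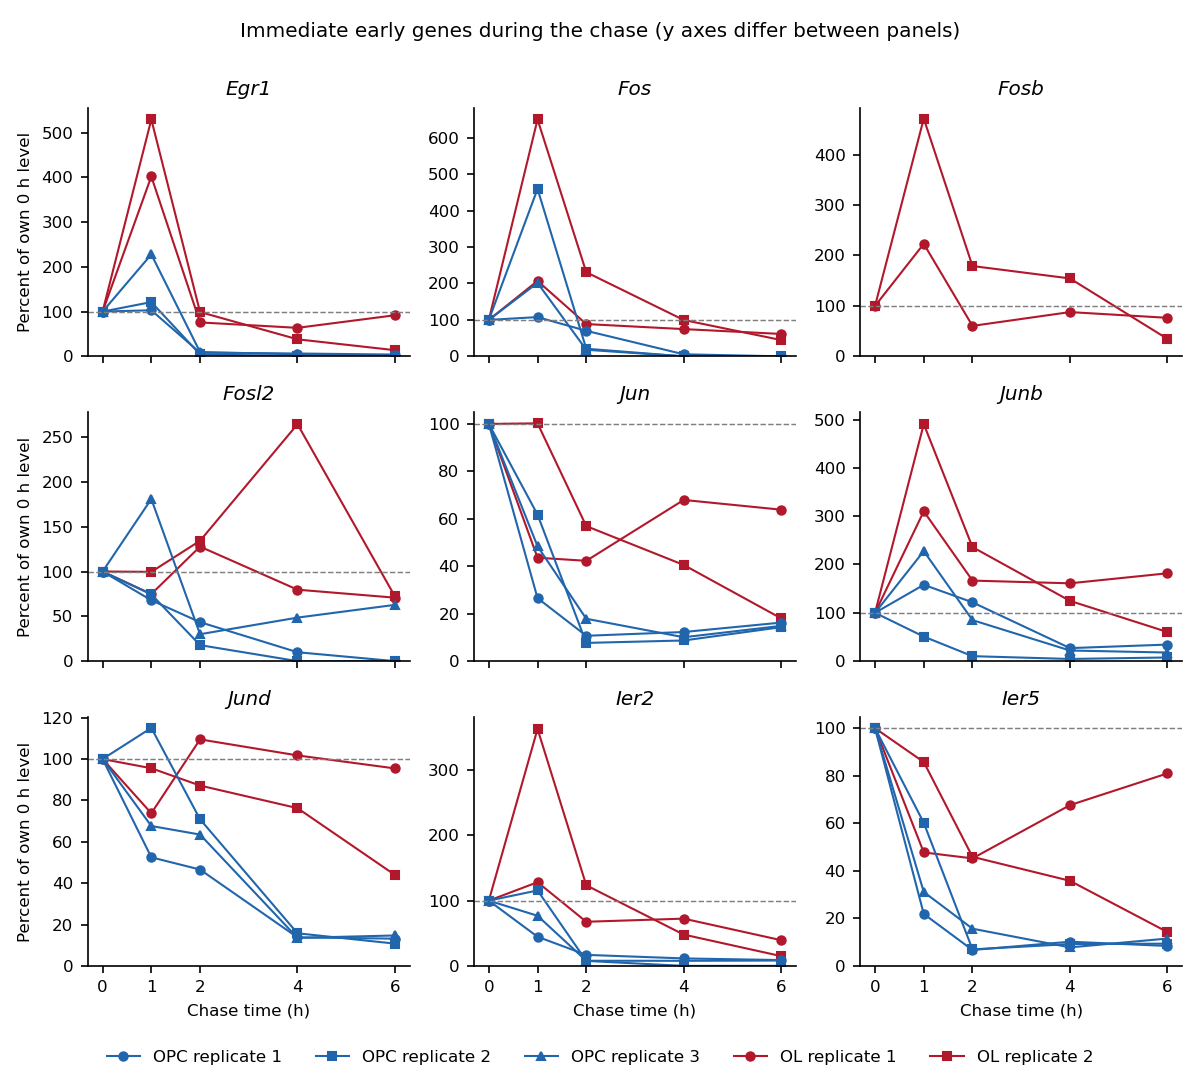
Percent of own 0 h level against chase time (h) for the 9 listed members, with 1 line per replicate (blue, OPC; red, OL) and a dashed line at 100%; y axes differ between panels. Egr1, Fos, Fosb, Junb and Ier2 peak at 1 h in both OL replicates, Fosl2 peaks at 2 h or 4 h, and Jun, Jund and Ier5 stay at or near 100% or below it in most replicates.

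From 2 h onward the percents of the members in OLs lay above those in OPCs without overlap. At 2 h, at 4 h and at 6 h, all 8 members listed for both cell types had both OL percents above all 3 OPC percents, beside 13.6%, 48.7% and 48.9% of the 8177 transcripts listed for both. At 1 h it was so for 3 of 8 (Egr1, Junb and Ier2), beside 2.71%. Set against the OPC replicate of equal number alone, whose 1 h library median was similar (67.9% and 64.0% for number 1, 95.3% and 95.5% for number 2), 7 of 8 members (all but Jund) were higher in OLs at 1 h for both numbers, beside 20.3% of all. This comparison was added after the data were seen. After each library was divided by its own median relative level, the order was found for 5, 7, 8 and 3 of 8 members at 1, 2, 4 and 6 h, beside 9.86%, 19.6%, 23.7% and 16.8% of all. The order at 2 h and 4 h was thus little moved by the scale, whereas at 6 h it was kept by Egr1, Fos and Jund alone. The median over these 8 members of their mean percent was 93.4% at 1 h, 21.3% at 2 h, 9.70% at 4 h and 11.3% at 6 h in OPCs, beside 81.4%, 72.5%, 33.9% and 14.8% over the 8177 transcripts. In OLs the median over the same 8 was 166%, 96.9%, 73.7% and 53.0%, beside 81.5%, 70.8%, 59.4% and 36.4%. The OL replicates parted. At 1 h the median of the 8 members was 102% in replicate 1 and 232% in replicate 2, and at 6 h it was 75.9% in replicate 1, above the library median of 31.5%, but 31.0% in replicate 2, below the library median of 36.6%. At 4 h 7 of the 8 OPC members lay below the library median in every replicate, beside 39.5% of all transcripts, whereas none of the 9 OL members did, beside 40.9% of all.

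Half-lives in the deposited tables came from a decay curve fitted to the 5 times, with a ceiling of 6 h. A value was present in all 3 OPC replicates for the 8 members listed there, but in OLs for only 6 of 9. Fos, Fosb and Junb lacked one, as did 0.544% of all OL transcripts. In a refit, the summed absolute residual of these 3 in OL replicate 2 was 736%, 570.1% and 591% of the 0 h level, and that of Egr1, which has a half-life, was 498%. In the refit, residuals exceeded 500% for each of the 39 (OPC) and 53 (OL) transcripts that lacked a half-life and for 1 OPC transcript that had one, but the sources used here state no such limit. The OL half-lives of the 1 h peak genes are therefore missing or, for Egr1 and Ier2 (352% in OL replicate 2), taken from a curve that lay far from its points.

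In OPCs the shortest-lived members were Ier5 (0.46, 1.16 and 0.59 h), Ier2 (0.86, 0.70 and 1.09 h), Jun (0.52, 1.14 and 0.96 h) and Egr1 (1.01, 0.70 and 0.90 h). These compare with medians of 2.33, 2.05 and 2.79 h over all OPC transcripts. Fos had 1.96, 0.89 and 0.81 h, and Jund 1.40, 1.96 and 2.17 h. Fosl2 and Junb varied most, at 1.66, 0.80 and 3.84 h and at 3.88, 0.89 and 2.41 h. Their longest values came from the replicates in which the 1 h level was above 100% (Fosl2 in replicate 3) or remained so at 2 h (Junb in replicate 1). In OPCs too, some half-lives of genes with a 1 h peak came from curves far from their points. The refit residual was 419% for Fos in replicate 2. It was 163% for Fos and 194% for Egr1 in replicate 3, and 148% and 191% for Junb in replicates 1 and 3. For Jun it was 31.6%, 41.0% and 23.7%.

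In OLs Fosl2 and Jund were at the 6 h ceiling in both replicates. Egr1 had 6 and 2.87 h, Jun 6 and 2.46 h, Ier5 6 and 2.13 h, and Ier2 4.46 and 3.77 h, beside medians of 4.15 and 4.05 h over all OL transcripts. Values at the ceiling are lower bounds. All 6 members with a value in every replicate had both OL half-lives longer than all 3 OPC half-lives, an order shared by 35.9% of the 8112 transcripts compared.

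The half-lives were fitted to the chase values that chose the genes, so the differences of the members are given as a description with no p. On the log2 scale OLs exceeded OPCs by 2.40 for Ier5, 2.27 for Egr1, 2.24 for Ier2, 2.21 for Jun, 1.80 for Fosl2 and 1.73 for Jund, where values at the ceiling understate the OL half-life. The differences of Ier5 and Jun depended on the OL replicate, at 1.65 and 1.57 without replicate 1 and 3.14 and 2.86 without replicate 2. Refitted half-lives moved some differences in either direction. Without the 6 h libraries they were 1.68 for Ier5 and 1.43 for Jun, but 2.75 for Egr1 and 2.73 for Ier2. Without the 1 h libraries Egr1 was at 2.98, and after scaling to the mean decay curve Jund was at 1.09. With each replicate centred on its own median, the 6 differences lay between 0.83 (Jund) and 1.49 (Ier5). The median over all transcripts was 0.37 without centring and -0.53 with it. Across the whole table, limma with trend called 0% of the 8112 transcripts, although 1898 had an unadjusted p under 0.05, and limma without trend called 287, of which 275 (3.39%) were longer in OLs. Whether calls were made thus depended on the model.

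**Figure D4:**
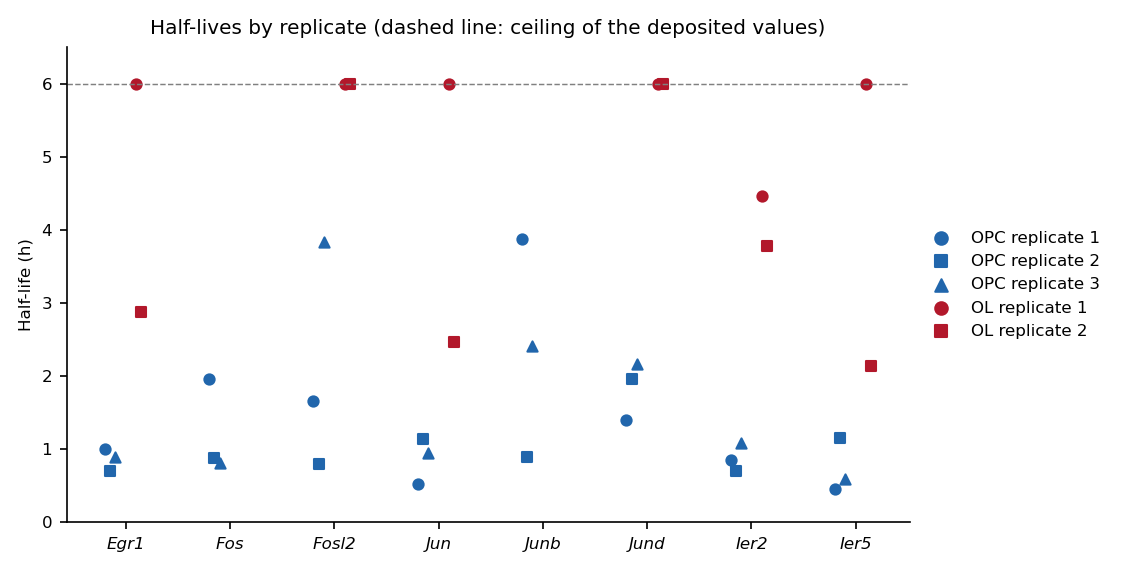
Half-life (h) of each member by replicate (blue, OPC; red, OL), with the 6 h ceiling dashed. For the 6 members with OL values, both red points lie above all blue points, and Fos and Junb have OPC points only.

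Other genes of the early response were counted over 4 lists of 105 genes in all, of which 60 were listed for OPCs and 76 for OLs. At 1 h, 3 of the 60 stood above their 0 h level in every OPC replicate, namely Nr4a1, Per1 and Dusp5, beside the 1.08% of all. In OLs 4 of 76 did so, namely these 3 and Maff, beside 1.91%. Nr4a1, a nuclear receptor of the early response, was at 199.5%, 209% and 240% in OPCs and at 200.1% and 438% in OLs at 1 h. At 4 h it was at 13.0%, 10.8% and 1.58% in OPCs and still at 116% and 451% in OLs. In OL replicate 2 it was level from 1 h to 4 h, and in OL replicate 1 it was highest at 2 h.

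Per1, a component of the circadian clock, was at 115%, 154% and 172% in OPCs and at 105% and 121% in OLs at 1 h. Dusp5, a phosphatase of the MAP kinase ERK, was at 185%, 173% and 281% in OPCs and at 234% and 136% in OLs. Both were listed at 0 in all OPC replicates at 6 h. Maff, a small Maf protein, was at 240.3% and 399% at 1 h in OLs and was highest at 4 h, at 342% and 904%, so that like Fosl2 in OL replicate 2 it peaked late. Its 0 h levels in OLs were 1.27 and 1.95 FPKM, near the 1 FPKM minimum, from which it reached 4.33 and 17.6 FPKM at 4 h.

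At 0 h, 59 of the list genes were tested between OLs and OPCs by limma, and differences are given on the log2(FPKM + 1) scale. Among 11 early response transcription factors outside AP-1, Klf10 (-1.81), Myc (-1.04) and Srf (-0.81) were lower in OLs and none was higher. The 3 of 11 stood beside the 17.5% of all transcripts called lower. Of 23 early response genes of other function, 4 were higher and 7 lower (14.1% and 17.5% of all), led by the feedback regulators of growth factor signalling Spry4 (-3.11 ± 0.25 SE, 78.9 to 81.0 FPKM in OPCs and 6.11 and 11.3 FPKM in OLs) and Dusp6 (-2.98 ± 0.22). Ier5l (-2.02) and Plk2 (-1.62) were also lower. The kinases Pim3 (3.00 ± 0.22) and Sgk1 (2.73 ± 0.23), Gadd45b (1.95) and Rhob (1.68) were higher.

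Of 18 factors upstream of early response promoters, none was higher and 4 were lower, a share near the 17.5% of all, namely Elk3 (-1.98), Elk4 (-0.93), Mapk14 (-0.81) and Map2k1 (-0.66). The calls of Myc, Srf, Elk4, Mapk14 and Map2k1 were lost when single libraries were left out (OL replicate 1 for all 5), and those of the other list genes named were kept. A replicate block likewise ended the calls of Srf and Map2k1 (log2 differences -0.88 and -0.60), and that of Map2k1 also ended without the trend. Median differences of the 4 lists (AP-1 partners, other transcription factors, genes of other function, upstream factors) were 0.01, -0.42, -0.11 and 0.08, beside -0.01 over all transcripts. For half-life none of the 57 list genes tested was called by limma with trend, and the list medians were 1.05, 1.35, 1.03 and 0.39, beside 0.37 over all.

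The 8 transcripts whose chase course was most like the mean of the members over the 20 chase libraries were Irs2 (r = 0.951), Spry4, Plk2, Id3, Dusp1, Ahdc1, Trib1 and Zfp703 (r = 0.910). These lacked the 1 h peak in OPCs. Irs2, an adaptor of insulin and IGF-1 receptors, stood at 23.1%, 73.1% and 60.6% at 1 h in OPCs and at 9.55%, 5.36% and 4.81% at 6 h. In OLs it was at 55.4% and 85.5% at 1 h and at 43.7% and 16.8% at 6 h. Of the members themselves, Ier2 (r = 0.896) and Egr1 (0.872) were most like the mean of the others, and Fosl2 (0.393) least.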

How the data were processed

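Per the labels and the study's methods, the authors clipped single-end reads, aligned them with HISAT2 2.1.0 to GRCm38 (mm10), estimated FPKM with StringTie 1.3.5 over canonical coding transcripts, and scaled every chase library to 5-EU-labelled spike-in RNAs. The deposited values are FPKM, together with a half-life in h (unit other) per replicate, capped at 6 h. Values of 0 h had 6 decimals and were taken as not rescaled, whereas the study's methods describe spike-in normalization at each time point. Which holds for 0 h was not settled here. No counts could be recovered, so depth and counting error are unknown. Columns were assigned to samples by their names.

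The members and gene lists were chosen with earlier results of these data known. Each library was divided by its replicate's 0 h level, without a pseudocount or test. OLs were compared with OPCs at 0 h (log2(FPKM + 1), 3 against 2 libraries) and in log2 half-life with limma 3.58.1 (R 4.3.3, trend, Benjamini-Hochberg over all transcripts in both cell types, threshold 0.05), after the fit was tested on simulated data. Python 3.11.15 was used otherwise. Replicates shared at most 0.0117% identical values. The study's methods state that the OL replicates correspond to 2 of the OPC replicates, but neither they nor the labels say which. At 0 h deviations of equal numbers correlated at 0.06 and 0.01, and those of OPC replicate 3 with OL replicate 2 at 0.09. With 2 OL replicates the OL deviations mirror each other, so these values cannot show which replicates match. No block was fitted in the reported values, and their errors treat the groups as independent despite the stated match. Named genes were all members, the 8 transcripts most alike over the chase, and in each list those above 0 h at 1 h in all replicates (at most 5) and up to 4 called in each direction at 0 h. The 0 h call of 1 list gene is not reported here.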

Additional observations from a re-analysis of the deposited data

Results flagged for a closer look

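At several times a gene was below its own 0 h level in every OPC replicate and above it in every OL replicate. These differences between cell types were not tested. Values are percents of the same replicate's 0 h level, in the order OPC replicates 1 to 3 and then OL replicates 1 and 2.

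Fosl2 at 2 h was at 43.5%, 17.8% and 30.02% in OPCs and at 128% and 134% in OLs. Junb at 4 h was at 26.9%, 4.47% and 22.0%, and at 161% and 125%. Dusp5 at 2 h was at 60.0%, 12.2% and 60.8%, and at 217% and 215%.

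Maff, whose 0 h levels in OLs were near the 1 FPKM minimum (1.27 and 1.95 FPKM), was at 14.9%, 18.2% and 0% in OPCs and at 342% and 904% in OLs at 4 h, and at 30.9%, 0% and 67.4% against 197% and 559% at 6 h. Nr4a1 was at 34.9%, 48.6% and 96.1% against 222% and 428% at 2 h, and at 13.0%, 10.8% and 1.58% against 116% and 451% at 4 h.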

How the results depend on the processing

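At 0 h, 2586 of 8177 transcripts were called, and between 1183 (without OL replicate 1) and 2912 when 1 replicate was left out. The counts without OPC replicate 3 (1446) and without OL replicate 2 (1464) were also lower by over 1.5 times. Fos and Ier2 were called under every alternative at 0 h except Fos without OL replicate 2 and Ier2 without OL replicate 1, each of which leaves a lone OL library assumed to vary like the OPCs. With 1 replicate left out, between 12 (without OL replicate 1) and 20 list genes were called, against 19.

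For half-life, 0 of 8112 transcripts were called with trend, against 287 by limma without trend, 305 without the 1 h libraries (291 longer in OLs), 156 after scaling to the mean decay curve (22 longer) and 2702 with replicates centred on their median (75 longer). Without a replicate the counts lay between 0 and 98, with 77 without OL replicate 1 (1 longer) and 98 without OL replicate 2 (6 longer). The cause was not tested. Centring moved the median difference of all transcripts from 0.37 to -0.53 and took the members' differences to between 0.83 (Jund) and 1.49 (Ier5), and no alternative run turned the direction of a member's half-life difference. Fosl2 was left out by the filter of at least 5 FPKM at 0 h.

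The replicate block, in which equal numbers are not stated to be matched (correlations between -0.11 and 0.06), called 2253 transcripts at 0 h and 0 for half-life. It kept Fos and Ier2 at 0 h, lost Srf and Map2k1, and changed no other call of a named gene.

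At 1 h OLs lay above OPCs for 3 members, against 7 between equal replicate numbers (added after the data were seen) and 5 after each library was divided by its median relative level. After that division the OL count at 2 h and 4 h was one of members above the library median. In every OL replicate 5 members were so at 2 h and 5 at 4 h, beside 35.2% and 40.9% of all OL transcripts. Without the division, 2 members at 2 h and 1 at 4 h were above own 0 h in every OL replicate. Leaving out an OL replicate gave 3 to 5 at 2 h and 2 to 3 at 4 h, the most without OL replicate 1. Of the list genes above 0 h at 1 h in OLs, 2 of 4 had a mean of at least 5 FPKM at 0 h, and leaving out a replicate gave 6 to 31, with 31 without OL replicate 1, whose partner library had 41.4% of all transcripts above 0 h. In OPCs the range was 4 to 5, against 3, with 5 without replicate 1 or 2.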
